A study of Mus musculus and Mus musculus musculus x Mus musculus castaneus with 52 samples.

Results

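The female mouse induced pluripotent stem cell (iPSC) lines LV20, LV21 and LV22 were followed from passage 7 (P7), when the series calls them XX, to passage 13 (P13), when it calls them XO. These 6 RNA libraries are 6 of the 52 samples of the series, and they were chosen by their labels, each line being compared with itself. Each line gave 1 library per passage, all wild type (WT) and undifferentiated by their labels. The 3 male lines LV4, LV8 and LV16, also wild type, undifferentiated and read at P7 and P13, are named XY at both passages and served as the comparator for time in culture. iPSCs are somatic cells returned to a pluripotent state. The labels used here do not give the cells of origin, the reprogramming method or the medium of the RNA samples, nor a karyotype, so XX and XO are names that the expression data were used to check.

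Female cells of the mouse normally silence a single X chromosome, coated by the RNA of Xist, so that X-linked output matches that of males. Naive pluripotent cells reverse this silencing and keep both X chromosomes active, and such cells are known to carry less DNA methylation, to resist differentiation and often to lose an X chromosome in culture. X-linked Dusp9, a phosphatase that switches off the kinase ERK, is among the genes thought to act through this double dose, and an XO cell has an X-linked dose like that of an XY cell.

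Values are log2 CPM (reads scaled to library size, on a log2 scale, as deposited), with 8309171 to 14245900 reads per library. The share of the X chromosome in each library was read as the median X-linked minus the median autosomal gene. LV20 went from 0.44 to -0.53, LV21 from -0.16 to -0.58 and LV22 from 0.58 to -0.15, while the value ran from -0.59 to -0.37 over the 6 male libraries. LV21 at P7 therefore had a lower X-linked output than the other P7 libraries named XX, and LV22 at P13 a higher one than every male library. Median changes of single autosomes were between -0.07 and 0.10 in all 6 lines except on chromosome 8, where LV21 had 0.16, LV22 0.20 and LV8 0.12. Against the male P7 mean, chromosome 8 already stood at 0.39 in LV21 at P7 and at 0.53 at P13. All 7 pluripotency markers were detected, with a summed level of 2431 to 3628 CPM in female P7 and 2836 to 3005 CPM in female P13 libraries. The 10 fibroblast and feeder markers summed to 228 to 341 CPM at P7 and 483 to 1004 CPM at P13 in the female lines, and to 244 to 255 and 459 to 1301 CPM in the male lines. The 7 macrophage and blood markers went from 32.3 to 41.1 CPM at P7 up to 70.1 to 136 CPM at P13 in the female lines and from 45.8 to 69.9 up to 72.3 to 186 CPM in the male lines. No marker was at 0 in all 12 libraries. Y-linked genes summed to 2.56% to 4.50% of the male mean in the female P7 libraries and to 5.26% to 13.1% in the P13 libraries, and the labels of the series' chromatin samples name male feeder cells. In such bulk libraries fewer cells of a type and less RNA per cell cannot be told apart.

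**Figure D1:**
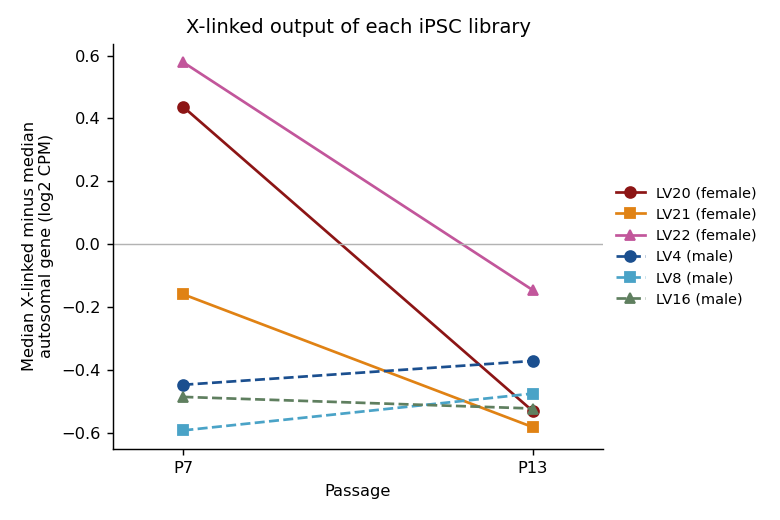
Median X-linked minus median autosomal gene (log2 CPM) in each library at P7 and P13, with solid lines for the 3 female and dashed lines for the 3 male lines. LV20 and LV22 start at 0.44 and 0.58 and LV21 at -0.16, and at P13 LV22 stands at -0.15, above the other 5 lines.

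Of 23 tested genes of the germline list, which also holds Pramel7, 6 fell in the female lines, Pramel7 among them. Of all autosomal genes 4.53% fell. The promoters of 6 genes of the list, of which Syce1 was not called, are shown here because genes of this kind are known to be held silent by DNA methylation at CG-rich promoters. Dazl binds RNA in germ cells, Mael controls transposons there, and Sohlh2 is a germ-cell transcription factor. Syce1 is part of the synaptonemal complex and Smc1b of meiotic cohesin, and Pramel7, a gene of early embryos, is given for contrast. Each sequence is the 250 bases before the RefSeq start site (GRCm38.p6), written 5′ to 3′ on the strand of the gene, with every CG in capitals.
Dazl, chr17:50293621-50293870, minus strand: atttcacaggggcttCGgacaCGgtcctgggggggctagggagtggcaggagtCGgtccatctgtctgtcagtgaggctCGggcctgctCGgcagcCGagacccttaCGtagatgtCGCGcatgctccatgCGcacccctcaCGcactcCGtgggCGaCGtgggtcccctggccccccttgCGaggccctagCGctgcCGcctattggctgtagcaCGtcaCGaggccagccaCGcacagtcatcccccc
Mael, chr1:166238745-166238994, minus strand: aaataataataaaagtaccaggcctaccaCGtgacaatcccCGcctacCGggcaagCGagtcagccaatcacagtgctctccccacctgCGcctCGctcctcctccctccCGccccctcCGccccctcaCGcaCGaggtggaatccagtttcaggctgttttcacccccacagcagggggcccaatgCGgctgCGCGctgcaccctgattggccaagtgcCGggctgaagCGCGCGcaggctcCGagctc
Sohlh2, chr3:55181794-55182043, plus strand: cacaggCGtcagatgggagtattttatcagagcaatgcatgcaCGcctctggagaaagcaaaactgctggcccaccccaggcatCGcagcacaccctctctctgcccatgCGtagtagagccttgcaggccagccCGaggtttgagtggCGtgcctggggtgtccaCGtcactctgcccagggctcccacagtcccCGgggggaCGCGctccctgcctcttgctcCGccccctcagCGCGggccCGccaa
Syce1, chr7:140787855-140788104, minus strand: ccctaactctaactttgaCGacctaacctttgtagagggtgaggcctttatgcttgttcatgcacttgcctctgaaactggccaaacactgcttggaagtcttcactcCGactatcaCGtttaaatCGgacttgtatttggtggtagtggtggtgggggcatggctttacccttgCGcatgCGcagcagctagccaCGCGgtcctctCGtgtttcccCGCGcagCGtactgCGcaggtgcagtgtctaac
Smc1b, chr15:85131958-85132207, minus strand: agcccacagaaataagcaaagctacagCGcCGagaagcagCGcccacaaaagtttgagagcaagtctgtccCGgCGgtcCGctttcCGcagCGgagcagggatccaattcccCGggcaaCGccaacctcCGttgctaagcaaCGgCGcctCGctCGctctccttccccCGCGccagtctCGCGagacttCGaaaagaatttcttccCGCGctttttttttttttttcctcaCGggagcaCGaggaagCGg
Pramel7, chr2:87492419-87492668, minus strand: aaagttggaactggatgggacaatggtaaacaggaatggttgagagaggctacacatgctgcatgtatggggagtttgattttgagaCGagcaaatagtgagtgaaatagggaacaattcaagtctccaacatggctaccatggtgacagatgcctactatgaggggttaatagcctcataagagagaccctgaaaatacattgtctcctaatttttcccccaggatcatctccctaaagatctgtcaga
These stretches hold 20 CGs in Dazl, 18 in Mael, 14 in Sohlh2, 13 in Syce1 and 25 in Smc1b, but 1 in Pramel7. RefSeq gave such a stretch for 25 of the 28 germline genes listed, with a median of 15 CGs, against 6 over all 27025 promoters and 16 over the 10406 promoters of tested genes. The E-box CACGTG, which reads the same on both strands, was found in 11 of the 25 (44%), Mael among the 6 printed, against 6.05% of all promoters and 8.52% of those of tested genes. The CG count of the list was thus close to that of tested genes in general. These letters show neither which factor binds nor the methylation, which is not analysed here.

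X-linked expression dropped over the whole length of the chromosome in each of the 3 female lines. Of 509 X-linked genes tested, 435 were lower at P13 in LV20 (85.5%), 413 in LV21 (81.1%) and 445 in LV22 (87.4%), with median changes of -0.65, -0.40 and -0.63 log2. In the male lines the medians were -0.02, 0.01 and 0.01. In windows of 10 Mb holding at least 7 genes, the median change was below 0 in 16 of 16 windows in each female line, from -1.18 to -0.43 in LV20, -1.07 to -0.23 in LV21 and -0.93 to -0.47 in LV22. The male lines had 10, 7 and 6 such windows below 0. The X minus autosome value changed by -0.71 ± 0.27 (SD, n = 3) in the female and by 0.05 ± 0.08 (SD, n = 3) in the male lines, a difference of -0.76 with an exact two-sided permutation p of 0.1, the smallest that 3 lines against 3 allow.

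**Figure D2:**
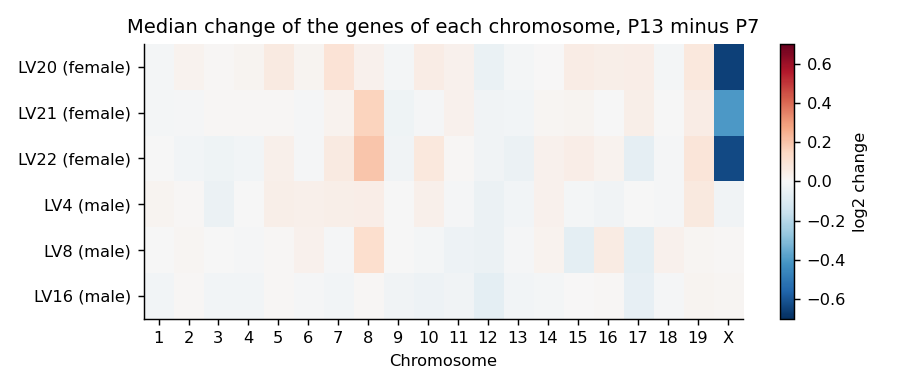
Median log2 change from P7 to P13 of the tested genes of each chromosome (columns) in each line (rows), blue for lower and red for higher at P13. The X chromosome is at -0.65, -0.40 and -0.63 in LV20, LV21 and LV22, and chromosome 8 is at 0.16 and 0.20 in LV21 and LV22.

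Gene by gene, 217 X-linked genes fell in the female lines (42.6% of those tested) and 3 rose (0.589%), by a limma fit with the line as a block. Every adjusted p below comes from such a fit, with a Benjamini-Hochberg adjustment across the 13978 genes. The X-linked total of 220 (43.2%) was 18 without LV20 and 51 without LV22. In the male lines 23 X-linked genes fell (4.52%) and 39 rose (7.66%). Xist, of which the female P7 libraries held 393 reads in all and the P13 libraries 39, moved from 3.72 to 0.76 in LV20, from 1.66 to -1.85 in LV21 and from 4.33 to 1.55 in LV22. Dusp9 (chrX:73639389-73643514) went from 7.50 to 5.46 in LV20, from 6.16 to 5.41 in LV21 and from 7.20 to 6.13 in LV22. The male libraries held Dusp9 at 5.87 to 6.04 at P7 and 5.33 to 5.45 at P13, so LV22 ended above every male library, LV20 and LV21 ended close to the male P13 values, and the passages did not overlap in either sex. Dusp9 fell by 1.29 ± 0.19 (SE, adjusted p = 0.006) in the female lines, and its change of -0.55 in the male lines was not called (adjusted p = 0.083). The female minus male difference of -0.74 was not called either (adjusted p = 0.346).

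Of 29 X-linked regulators tested, chosen for roles in pluripotency, chromatin or signalling, 15 fell and 1 rose in the female lines, which is read against the 42.6% of all X-linked genes that fell. Usp9x, a deubiquitinase that escapes X inactivation in part, went from 10.72, 10.00 and 11.02 to 9.78, 9.70 and 10.08 in LV20, LV21 and LV22 (-0.73 ± 0.11, adjusted p = 0.00612) while the 6 male libraries stayed at 9.65 to 9.82. Klhl13, a ubiquitin ligase adaptor, fell by 0.57 ± 0.09 (adjusted p = 0.00671), Kdm5c, a histone demethylase, by 0.48 ± 0.11 (adjusted p = 0.0215) and the ubiquitin ligase Huwe1 by 0.45 ± 0.09 (adjusted p = 0.0118). Rlim, the ubiquitin ligase that activates Xist (-0.43 ± 0.14, adjusted p = 0.0746) and the chromatin remodeller Atrx (-0.34 ± 0.11, adjusted p = 0.0706) were not called. The Polycomb gene Scml2 fell from 8.13 to 4.41 in LV20, from 6.26 to 2.80 in LV21 and from 7.86 to 6.03 in LV22 (-3.00 ± 0.30, adjusted p = 0.00132). LV20 and LV22 at P13 were thus above the male libraries, which ranged from 2.58 to 3.55 for Scml2, and LV21 was within their range. Among 11 genes known to escape X inactivation, 6 fell, and the median change was -0.39.

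Many autosomal genes changed in the female lines, and about as many of them were also called in the male lines as were not. Of 12966 autosomal genes tested, 722 rose (5.57%) and 588 fell (4.53%) from P7 to P13 in the female lines, 1310 in all (10.1%). In the male lines 1087 rose (8.38%) and 924 fell (7.13%), 2011 in all (15.5%). Counts of called members in the autosomal gene lists below are to be read against these shares. Over genes of every kind 11.1% were called in the female and 15.0% in the male lines. The female count rested on LV20 and LV22, being 40 without LV20, 180 without LV22 and 754 without the male line LV8, and it was 1809 (14.0%) without LV21. Of the female increases 391 were also called in the male lines (54.2% of the female and 36.0% of the male increases), and of the decreases 259 (44.0% and 28.0%). The mean change in the male lines had the same sign for 92.1% of the female increases and 91.7% of the decreases, where 49.6% of all autosomal genes were higher and 50.4% lower in the male lines, and 1 gene in each direction was called the opposite way. The male count itself was 65 without LV8 and 458 without LV4.

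**Figure D3:**
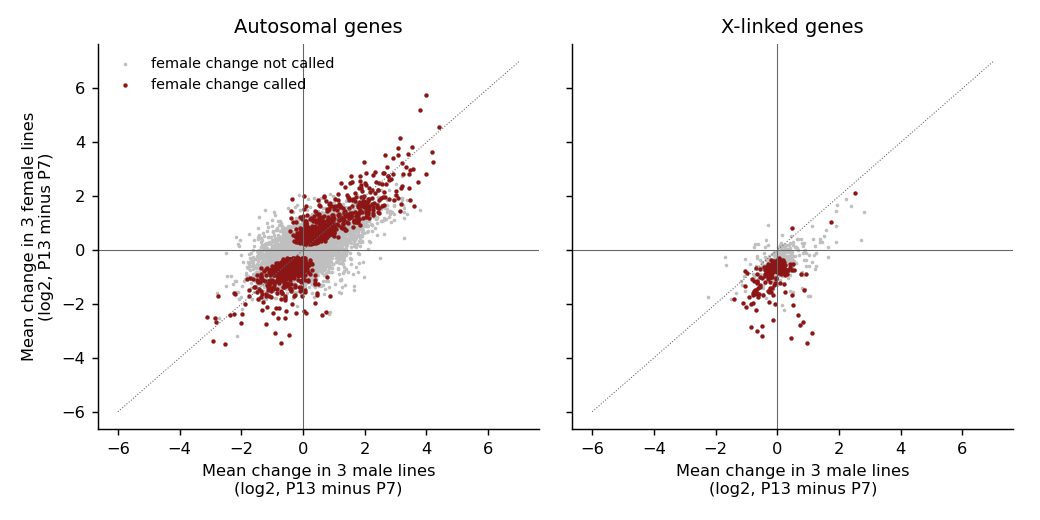
Mean log2 change from P7 to P13 of each tested gene in the 3 female lines (vertical) against the 3 male lines (horizontal), for autosomal genes on the left and X-linked genes on the right, with genes called in the female lines in dark red and the dotted line marking equal change. Called autosomal genes lie mostly in the quadrants of shared sign (92.1% of increases and 91.7% of decreases), and called X-linked genes lie below the dotted line.

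The lines themselves differed in how alike their autosomal changes were. Across 12966 autosomal genes the changes of LV20 and LV22 had a Pearson r of 0.62, those of LV20 and LV21 0.33 and those of LV21 and LV22 0.25. With the male line LV4, LV20 had 0.52 and LV22 0.55, so LV20 and LV22 were each more like a male line than like LV21. LV21 had 0.39 with the male line LV8, and so was also more like a male line than like LV20 or LV22. These values describe genes of the same libraries, which are not independent replicates. LV21 had 840 autosomal genes lower by more than 2-fold and 620 higher, whereas LV20 had 694 and 916 and LV22 552 and 969.

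Genes of early differentiation set LV21 at P7 apart from LV20 and LV22. T, the primitive streak factor brachyury, stood at 6.36 in LV21 at P7 and at 2.48 and 2.82 in LV20 and LV22, and at -1.43, 0.76 and 2.73 at P13. Lhx1, a mesendoderm factor, went from 4.22 to -2.45 in LV21, from 0.93 to -1.82 in LV20 and from 1.34 to 0.33 in LV22. Among called autosomal genes that reached 4 CPM in a female group and moved one way in all 3 lines, Lhx1 had the largest mean decrease (-3.48 ± 0.88, adjusted p = 0.0342), which was -1.88 and not called without LV21 (adjusted p = 0.0903). Fgf5, a marker of formative cells, behaved alike, with 3.69 to -1.43 in LV21, 1.74 to 0.12 in LV20 and 2.31 to 0.80 in LV22, and was not called without LV21 (adjusted p = 0.118). Of 8 mesendoderm genes tested 2 fell, or 0 without LV21, with median changes of -5.23 in LV21, -1.38 in LV20 and 0.12 in LV22. The list fell in the male lines too, with median changes of -1.24, -2.77 and -1.29 in LV4, LV8 and LV16. Its summed level at P7 was 184 CPM in LV21, 94.0 CPM in LV4 and 30.9 to 41.9 CPM in the other lines. The female minus male difference was called for 0 of the 8.

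The female minus male difference asks which genes changed in the female lines beyond the change that both sexes shared. It was called for 11 genes (0.0787% of 13978), of which 3 were autosomal (0.0231%), 2 higher (0.0154%) and 1 lower (0.00771%), and 8 X-linked, all lower (1.57%). At an unadjusted p under 0.05 there were 1587 genes (11.4%), among them 1310 autosomal (10.1%) and 242 X-linked genes (47.5%). The median standard error of an autosomal difference was 0.25 log2. Without the line as a block limma called 0 genes, with 1242 of all genes at an unadjusted p under 0.05, whereas voom on recovered reads with the block called 11. Leaving out single lines gave 0 autosomal calls without LV20, LV4 or LV8, 1 without LV22, 28 without LV16 and 77 without LV21. All 3 female line changes lay below all 3 male ones in 7.33% of autosomal and 46.8% of X-linked genes, and above them in 8.97% and 0.589%.

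The 2 autosomal genes called as higher in the female lines were Plin3 and Nav2. Plin3 (chr17:56278962-56290511), a lipid droplet coat protein, went from 5.93 to 6.84 in LV20, from 6.08 to 6.74 in LV21 and from 5.65 to 6.42 in LV22, and from 6.76 to 6.53, 6.99 to 6.73 and 6.86 to 6.62 in LV4, LV8 and LV16. All female P7 libraries lay below all male ones, and at P13 the sexes overlapped. The difference was 1.03 ± 0.12 (adjusted p = 0.0214). Nav2 (chr7:48959063-49610090), a neuron navigator gene, went from 7.16, 7.38 and 7.06 at P7 to 8.29, 8.32 and 7.75 at P13 in LV20, LV21 and LV22. The male libraries held Nav2 at 7.99 to 8.16 at P7 and 7.99 to 8.25 at P13, again above every female P7 library. The difference was 0.85 ± 0.12 (adjusted p = 0.0479).

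In the autosomal gene called as lower, Arl14epl, the male lines moved. It went from 6.64 to 6.45 in LV20, from 5.06 to 5.00 in LV21 and from 6.85 to 6.75 in LV22, a female change of -0.12 ± 0.12 that was not called (adjusted p = 0.576). In LV4, LV8 and LV16 it went from 4.72, 4.64 and 5.04 to 6.00, 6.16 and 5.96 (1.24 ± 0.12, adjusted p = 0.00145). The difference was -1.36 ± 0.18 (adjusted p = 0.0254).

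The 8 X-linked genes were Usp26, Efhc2, Rhox5, Mcf2, Mpp1, Pgrmc1, Slc25a5 and Wdr45. Usp26 (chrX:51752667-51801233), a deubiquitinase known from testis, went from 8.65 to 7.26 in LV20, from 7.11 to 5.34 in LV21 and from 9.06 to 7.59 in LV22, and was at 6.40 to 7.22 over the male libraries. Its difference of -1.78 ± 0.15 (adjusted p = 0.00247) was called in 11 of 13 alternatives. Efhc2, which encodes an EF-hand protein of cilia, fell from 5.79, 3.66 and 5.58 to 2.04, 1.35 and 3.32, where the male libraries held 0.80 to 2.20. Rhox5, an X-linked homeobox gene, had a change of -0.46 ± 0.13 in the female lines (adjusted p = 0.0505) and rose by 1.12 ± 0.13 in the male lines (adjusted p = 0.00182), so most of its difference of -1.58 ± 0.19 came from the male side. Mcf2 fell in the female lines (-0.87 ± 0.15) and rose in the male lines (0.94 ± 0.15).

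LV21 at P7, named XX, had an X minus autosome value of -0.16, close to the -0.15 of LV22 at P13, named XO. Because LV21 at P7 had a lower X-linked output than the other lines named XX, the differences were also taken without LV21. LV22 was kept, and the choice was made after the values were seen. The difference was then called for 151 genes (1.08%), of which 77 were autosomal (0.594%), with 29 lower (0.224%) and 48 higher (0.37%), and 68 X-linked, all lower (13.4%). The unadjusted p was under 0.05 for 14.0% of all, 12.7% of autosomal and 53.2% of X-linked genes. Of the 29, 25 were lower at P13 than at P7 in both LV20 and LV22, and of the 48, 41 were higher in both. The calls were made on LV20 and LV22, so this agreement comes in part from the selection and is no support. In LV21 itself 20 of the 29 were lower and 20 of the 48 were higher at P13, where 48.6% of all autosomal genes were lower. By its own change from P7 to P13, LV21 thus did not repeat the increases as a group. Against the mean male change, as in the calls, LV21 went the same way for 54 of the 77. LV21 had no part in these calls, but the male lines had, so the 54 come in part from the selection.

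Germline genes accounted for 5 of the 29 autosomal genes called as lower without LV21. With all lines 6 of 23 tested genes of the germline list fell in the female lines, Pramel7 among them, and none rose. By comparison 4.53% of all autosomal genes fell and 5.57% rose. The median change of the list was -0.63 log2 against 0.01 over all autosomal genes, while 1 member rose and 1 fell in the male lines (median 0.08). The median was -1.37 in LV20, -0.53 in LV22 and -0.06 in LV21, and 0.09, 0.35 and -0.13 in LV4, LV8 and LV16. The female minus male difference was called for 0 of the 23 with all lines (median -0.39) and for 5, all lower, without LV21 (median -0.97).

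Dazl went from 6.89 to 4.86 in LV20, from 5.08 to 4.25 in LV21 and from 6.38 to 5.42 in LV22, and from 3.04 to 3.33, 3.34 to 4.35 and 3.82 to 3.70 in LV4, LV8 and LV16. Every female P7 library lay above every male library, and LV21 was the lowest of the 3. Dazl fell by 1.27 ± 0.26 in the female lines (adjusted p = 0.0151), and the difference from the male lines was -1.67 ± 0.37 (adjusted p = 0.13), or -1.89 ± 0.37 without LV21 (adjusted p = 0.0389). Smc1b, the meiotic cohesin subunit, went from 7.03 to 5.45, from 5.34 to 4.26 and from 7.35 to 5.65 in LV20, LV21 and LV22, a fall of 1.45 ± 0.17 (adjusted p = 0.00206). Its male libraries ranged from 3.95 to 5.63, so LV21 at P7 lay inside the male range and LV20 and LV22 above it. Sohlh2 stayed at 4.05 and 3.99 in LV21, where LV20 went from 6.35 to 4.16 and LV22 from 6.00 to 4.33. Mael showed 5.39 to 3.40, 3.33 to 2.70 and 5.08 to 3.96 in the same order of lines as Dazl, and Syce1 5.31 to 3.94, 3.82 to 3.68 and 5.25 to 4.29. Syce1 was not called in the female lines (-0.82 ± 0.26, adjusted p = 0.0662) and rose by 0.91 in the male lines (adjusted p = 0.0399).

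Germline genes without such a pattern were present too. Ddx4, the germ-cell helicase, stood at 5.40, 4.80 and 5.28 at P7 and 5.24, 6.33 and 5.66 at P13 in LV20, LV21 and LV22, with a promoter that holds 31 CGs and an E-box. Stk31, a germ-cell kinase, went up in LV21 from 2.85 to 4.38 and down in LV20 from 4.87 to 4.00. Pramel7 and the oocyte-type homeobox gene Obox6, whose male libraries lay between -2.45, the floor of the table, and -0.13, fell by 2.32 ± 0.59 (adjusted p = 0.0342) and 2.41 ± 0.66 (adjusted p = 0.0418) in the female lines, in LV21 as well (2.18 to -0.42 and 2.18 to 0.17). Their differences from the male lines were not called, with or without LV21.

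**Figure D4:**
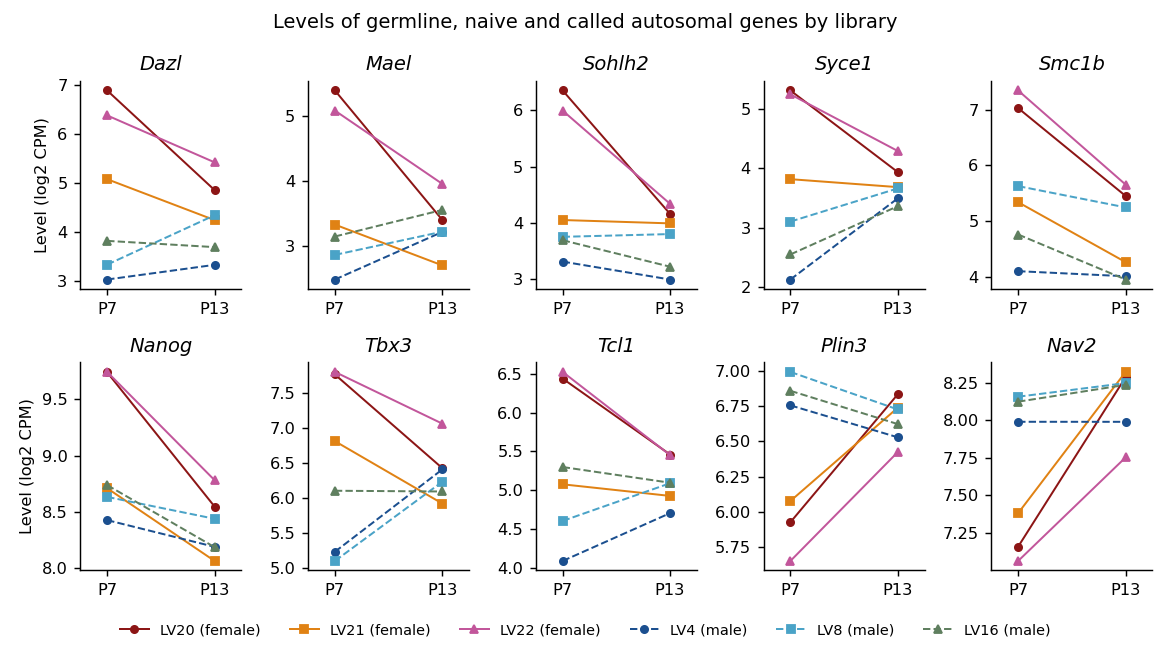
Levels (log2 CPM) of 5 germline genes (upper row), 3 naive genes and the 2 autosomal genes called as higher (lower row) in each library at P7 and P13, with solid lines for the 3 female and dashed lines for the 3 male lines. Dazl starts at 6.89 and 6.38 in LV20 and LV22 and at 5.08 in LV21, and Plin3 starts below all male libraries in the 3 female lines.

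The naive pluripotency genes split. Of 22 tested, 5 rose and 4 fell in the female lines (median 0.04; 4 and 7 without LV21) and 6 rose and 1 fell in the male lines (median 0.26). Among all autosomal genes 5.57% rose and 4.53% fell in the female lines, and 8.38% and 7.13% in the male lines. Nanog (chr6:122707489-122714633), a homeobox factor of the naive network, went from 9.74 to 8.54 in LV20, from 8.71 to 8.06 in LV21 and from 9.75 to 8.78 in LV22, and ranged from 8.18 to 8.74 over the male libraries. At P7 LV20 and LV22 lay above LV21 and the male lines, and at P13 the sexes overlapped. Nanog fell by 0.94 ± 0.11 in the female lines (adjusted p = 0.00193), and the difference from the male lines was -0.61 ± 0.15 (adjusted p = 0.162), or -0.75 ± 0.13 without LV21 (adjusted p = 0.0267). Tbx3, a T-box factor that sustains self-renewal, went from 7.77 to 6.43, from 6.82 to 5.92 and from 7.81 to 7.07 in LV20, LV21 and LV22, and from 5.24 to 6.41, from 5.10 to 6.24 and from 6.11 to 6.10 in LV4, LV8 and LV16. Its difference was -1.76 ± 0.29 (adjusted p = 0.0705), or -1.81 ± 0.31 without LV21 (adjusted p = 0.0248).

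Tcl1, a coactivator of the kinase AKT, went from 6.44 to 5.46 in LV20 and from 6.52 to 5.45 in LV22 but only from 5.08 to 4.93 in LV21, and fell by 0.73 ± 0.20 on average (adjusted p = 0.0434). Fgf4, the FGF ligand of pluripotent cells, was lower at P13 in LV20 (7.94 to 7.15) and LV22 (7.91 to 7.20) and higher in LV21 (6.73 to 7.41), and its difference was called only without LV21 (-0.68 ± 0.14, adjusted p = 0.0425). Klf4 fell in both sexes, by 0.77 ± 0.12 in the female (adjusted p = 0.006) and 0.48 ± 0.12 in the male lines (adjusted p = 0.0231). Spp1, Gbx2 and Manba rose in both sexes, by 1.17, 1.31 and 0.76 in the female lines. Klf2 (0.05 ± 0.09, adjusted p = 0.75) and Esrrb (-0.07 ± 0.10, adjusted p = 0.693) were not called. Of the 12 core pluripotency genes 6 rose in each sex and none fell, with a median of 0.44 in both, led by L1td1 and Dppa2. Lin28a, an RNA-binding protein that rises as cells leave the naive state, went from 7.72 to 8.72 in LV20 and from 7.76 to 8.49 in LV22 but from 8.39 to 8.04 in LV21.

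Feedback genes of the FGF and ERK pathway moved in part. Of 19 tested, 6 rose and 2 fell in the female lines, and 3 rose and 1 fell in the male lines. The shares over all autosomal genes were 5.57% and 4.53% in the female and 8.38% and 7.13% in the male lines. Etv4, an ERK-induced transcription factor, went from 6.06 to 7.11, from 6.54 to 7.76 and from 5.81 to 7.26 in LV20, LV21 and LV22 (1.24 ± 0.17, adjusted p = 0.00374), and rose by 1.21 ± 0.17 in the male lines (adjusted p = 0.00318). Spry4, an inhibitor of receptor signalling, went from 4.18 to 5.36, from 5.09 to 5.67 and from 4.74 to 5.53 in the female lines (0.85 ± 0.21, adjusted p = 0.0307), and its male change of 0.15 ± 0.21 was not called (adjusted p = 0.66). The difference was not called (0.70 ± 0.30, adjusted p = 0.414). Dusp6, an ERK phosphatase induced by ERK, was not called in the female lines (-0.30 ± 0.16, adjusted p = 0.257). Il17rd, an inhibitor of FGF signalling, was at 6.07 and 5.97 at P7 in LV20 and LV22 against 6.93 in LV21 and 6.72 to 7.05 in the male lines, and at 6.37, 6.21 and 6.31 at P13 in LV20, LV21 and LV22, where the male lines overlapped them. Its difference was 0.79 ± 0.14 without LV21 (adjusted p = 0.0278) and 0.44 ± 0.24 with all lines (adjusted p = 0.525).

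Genes of the early response to stimulation fell in both sexes. Of 21 immediate-early genes 11 fell and none rose in each sex, with medians of -0.92 in the female and -0.79 in the male lines. Fos went from 8.51 to 6.34, from 8.69 to 6.47 and from 8.66 to 5.88 in LV20, LV21 and LV22 (-2.39 ± 0.40, adjusted p = 0.00722), and from 9.26 to 8.64 in LV16, whose list median was -0.16. Of 18 p53 targets 7 fell in the female lines (median -0.50) and 3 in the male lines (median -0.20), and 1 and 4 rose. Cdkn1a, an inhibitor of the cell cycle, fell by 0.73 ± 0.15 (adjusted p = 0.0174) and Mdm2, which degrades p53, by 0.48 ± 0.11 (adjusted p = 0.0224) in the female lines. Their differences from the male lines were -0.51 (adjusted p = 0.415) and -0.27 (adjusted p = 0.536).

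Energy metabolism genes were called in both sexes, and with all lines the female minus male difference was called for 0 of the glycolysis and hypoxia, mitochondrially encoded and cholesterol synthesis genes. Of 24 glycolysis and hypoxia genes 1 rose and 2 fell in the female lines (median -0.19), while 16 fell in the male lines (median -0.71). Without LV21 the female count was 12 lower and 1 higher (median -0.46), and the difference was called for 1 gene. The line medians were -0.51 in LV20, 0.25 in LV21 and -0.39 in LV22, against -0.59, -0.68 and -0.66 in LV4, LV8 and LV16. Slc2a3, the glucose transporter of these cells, fell in both sexes, from 11.24 to 10.22 in LV20, from 10.35 to 10.09 in LV21 and from 11.02 to 10.10 in LV22 (-0.73 ± 0.12, adjusted p = 0.00708). Pdk1, a kinase that holds pyruvate back from mitochondria, rose from 7.14 to 7.66, from 7.33 to 8.26 and from 6.96 to 7.41 in the female lines (0.63 ± 0.12, adjusted p = 0.0106), and its male change was -0.11 (adjusted p = 0.557). The female lines started lower than the male lines for Aldoc, a glycolytic aldolase, with 5.39, 4.86 and 4.80 at P7 against 6.10 to 6.79, and all 6 lines ended at 4.47 to 5.20. The difference of 1.27 ± 0.23 for Aldoc was not called with all lines (adjusted p = 0.0823) and was 1.04 ± 0.20 without LV21 (adjusted p = 0.035).

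Of the 7 tested transcripts of the mitochondrially encoded list, 1 rose in the female lines (median 0.12) and 5 rose in the male lines (median 0.64). Over all 13 mitochondrial genes tested, the median change was 0.12, 0.10 and -0.08 in LV20, LV21 and LV22. It was 0.60, 0.58 and 0.32 in LV4, LV8 and LV16. The transcript mt-Cytb, which encodes cytochrome b, stood at 11.91, 12.03 and 12.18 at P7 and 12.41, 12.31 and 12.65 at P13 in LV20, LV21 and LV22, and at 10.96 to 11.50 and 12.24 to 12.54 in the male lines. The sexes did not overlap at P7 and overlapped at P13. The difference for mt-Cytb was -0.69 ± 0.16 (adjusted p = 0.145), and 0 of the 7 were called with all lines against 3 without LV21. Of 22 cholesterol synthesis genes 4 fell in the female lines (median -0.25) and 15 in the male lines (median -0.50), with 0 called for the difference. Insig1, a sterol-regulated brake on that pathway, fell by 0.72 ± 0.13 in the female lines (adjusted p = 0.00934).

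The DNA methylation machinery changed in a few members. Of 14 genes tested 4 rose (Dnmt3a, Dnmt3l, Mbd3 and Uhrf1) and 2 fell (Tet3 and Uhrf2) in the female lines, and 2 rose and 1 fell in the male lines. Over all autosomal genes the shares were 5.57% and 4.53% in the female and 8.38% and 7.13% in the male lines. The methyltransferase Dnmt3a rose from 6.83 to 7.98, from 7.32 to 7.99 and from 6.90 to 7.57 in LV20, LV21 and LV22 (0.83 ± 0.19, adjusted p = 0.0219) and by 0.64 ± 0.19 in the male lines (adjusted p = 0.0442). Dnmt3b, its partner enzyme, went from 7.53 to 9.06 in LV20 and from 7.63 to 8.65 in LV22 but from 8.76 to 8.45 in LV21, where the male P7 libraries held 8.22 to 9.26. The female change of Dnmt3b was not called (0.75 ± 0.30, adjusted p = 0.125), and it was 1.28 without LV21 (adjusted p = 0.00352). Uhrf1, the cofactor of maintenance methylation, rose by 0.25 ± 0.07 (adjusted p = 0.044). The demethylase Tet3 fell by 0.90 ± 0.14 (adjusted p = 0.00671), while Tet1 was not called (0.32 ± 0.12, adjusted p = 0.107). None of the 14 was called for the female minus male difference, with or without LV21.

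Imprinted genes went both ways, with 2 of 26 rising and 3 falling in the female lines, or 5 and 4 without LV21. For comparison, 5.57% of all autosomal genes rose and 4.53% fell in the female lines, and 14.0% were called without LV21. Plagl1, a zinc-finger gene expressed from the paternal allele, went from 6.60 to 5.05 in LV20 and from 6.60 to 4.77 in LV21 but from 6.28 to 6.16 in LV22, and the male libraries lay at 5.06 to 5.70. It fell by 1.16 ± 0.25 (adjusted p = 0.0192), with a difference from the male lines of -1.11 ± 0.35 (adjusted p = 0.268). Grb10 fell by 0.68 ± 0.13 (adjusted p = 0.0127), and Peg3 rose by 0.52 ± 0.10 (adjusted p = 0.0121).

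The largest autosomal increases belonged to interferon and macrophage genes. The macrophage list median also rose in all 3 male lines, and the interferon list median rose clearly in 2 of them. Of 30 interferon-stimulated genes 15 rose and none fell in the female lines (median 1.49), and 12 rose in the male lines (median 1.19). The list medians of LV20, LV21 and LV22 were 2.04, 0.74 and 1.51, and those of LV4, LV8 and LV16 were 1.79, 1.90 and 0.09. Irf7, the transcription factor that amplifies the interferon response, went from -1.81 to 4.33, from -1.34 to 3.48 and from -1.91 to 4.39 in LV20, LV21 and LV22 (5.75 ± 0.85, adjusted p = 0.00523), from 4 reads in all at P7 to 488 at P13. Ifit3, an antiviral effector, had 2 reads in the female P7 and 236 in the P13 libraries, a ratio of 126 with a 95% counting interval of 34.4 to 1043. Bst2, which tethers virus particles to the cell surface, went from 5.02 to 6.66, from 5.99 to 6.79 and from 4.88 to 6.30 in the female lines (1.29 ± 0.20, adjusted p = 0.00612) and was not called in the male lines (0.14 ± 0.20, adjusted p = 0.682). The difference for Bst2 was 1.15 ± 0.28 (adjusted p = 0.161), or 1.39 ± 0.26 without LV21 (adjusted p = 0.0334).

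Markers of other cells rose too. The macrophage and blood list median was 2.33, 0.98 and 2.11 in LV20, LV21 and LV22. In LV4, LV8 and LV16 it was 2.90, 1.98 and 1.23. LV21 and LV16 had the lowest medians of both this list and the interferon list. In LV16 the macrophage and blood list median was 1.23 and the interferon list median 0.09. Of 18 macrophage and blood genes 16 rose in the female lines (median 1.76) and 15 in the male lines (median 2.06), and their summed level went from 198 to 623 CPM in LV20, from 166 to 319 CPM in LV21 and from 205 to 651 CPM in LV22. Of 26 fibroblast and feeder genes 11 rose in the female lines (median 1.07) and 17 in the male lines (median 1.61). Without LV21, 23 rose in the female lines (median 1.45) and 21 in the male lines by the same fit. Their summed level went from 3170 to 4877 CPM in LV20 and from 2879 to 5471 CPM in LV22 but from 3862 to 3280 CPM in LV21. None of either list was called for the female minus male difference, and the part of these cells in the interferon and antigen presentation results was not tested. Of 21 antigen presentation genes 6 rose in the female and 5 in the male lines, led in the female lines by Tgtp1, Irgm1 and H2-T23. The median change of this list was 1.54 in LV20 and 0.84 in LV22 but -0.44 in LV21, whose summed level went from 738 to 431 CPM, and 11 genes rose without LV21. Y-linked genes rose in the female lines in 3 of 5 cases, for example Eif2s3y from 1.45 to 2.30 in LV20, from -0.72 to 1.64 in LV21 and from 0.53 to 2.38 in LV22, against 5.84 to 6.47 in the male libraries.

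**Figure D5:**
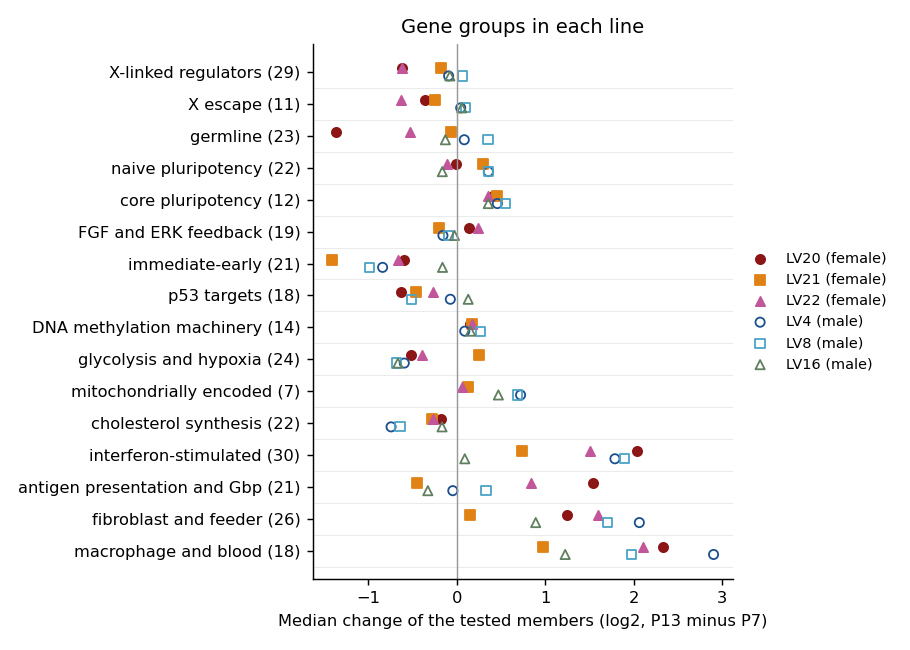
Median log2 change from P7 to P13 of the tested members of 16 gene groups (number tested in brackets) in each line, with filled symbols for the 3 female and open symbols for the 3 male lines. Germline genes stand at -1.37 in LV20 and -0.53 in LV22 but at -0.06 in LV21, and the core pluripotency and macrophage groups are above 0 in all 6 lines.

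Among 14 LIF and Stat3 targets 2 rose and 4 fell in the female lines, with Socs3, the feedback inhibitor of this pathway, down by 1.11 ± 0.15 (adjusted p = 0.004) and by 1.31 in the male lines (adjusted p = 0.002). Of 16 formative and primed genes 0 rose and 1 fell, of 13 Wnt targets 0 and 1, of 13 BMP and Id genes 1 and 2, and of 11 Nodal and Lefty genes 1 and 1. Of 14 primitive endoderm genes 2 rose and 0 fell, of 12 trophoblast genes 0 and 2, of 9 early neural genes 2 and 1, and of 24 cytosolic ribosomal protein genes 1 and 0. These counts stand beside 5.57% of all autosomal genes that rose and 4.53% that fell in the female lines. None of these lists had a member called for the difference with all lines.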

How the data were processed

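Per the labels' protocols, RNA came from TRIzol extraction, the mRNA kit kept strand, and reads were single-end. The authors deposited log2 CPM for 16687 genes, the only unit used here. STAR 2.5.3a, edgeR and featureCounts appear in the submitters' processing notes without their roles, beside the builds mm10 and GRCm38. Of the 24 columns, 12 belong to iPSCs and were used. Each column is a floor of -2.45 plus whole multiples of 1 step on the linear scale, so reads could be recovered (100% within 0.01 read). Intervals on reads cover counting error only. Positions came from RefSeq GRCm38.p6, which placed 15225 genes by symbol and 362 by synonym.

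Genes averaging 1 CPM or more (13978) entered a fit by limma 3.58.1 under R 4.3.3 (eBayes with a trend, two-sided, Benjamini-Hochberg, threshold 0.05), with the line as a block and a passage effect for each sex (4 residual degrees of freedom). The plan assumed linear values with a pseudocount. Since the table already holds log2 values these were fitted unchanged. The pairing rests on the same line being read at both passages. Deviations of the same line from its group means correlated by only -0.04 to 0.11. Each group is 3 lines with 1 library each. In the main fit p-values measure the spread of the P13 minus P7 changes between lines, pooled over the female and male lines.

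The lines, the 30 gene lists (29 with tested members; 2-cell-like genes had none) and the tests were chosen with earlier results of these data known. Named genes are the 8 largest autosomal changes in each direction that reached 4 CPM and agreed in direction in all lines, up to 3 called members of each list, and checks of the labels. Others, among them genes called only without LV21 and list members that were not called, were named after their values were seen. Alternatives were a fit without the block, the female lines alone, other pseudocounts, filters and centring, voom, and leaving out each line. The fits were tested on simulated data.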

Additional observations from a re-analysis of the deposited data

Results flagged for a closer look

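The passage change differed between the female and the male lines, by the test of the difference itself, for 11 genes. The female minus male difference in log2 change was 1.03 for Plin3, 0.85 for Nav2 and -1.36 for Arl14epl among autosomal genes. Among X-linked genes it was -3.51 for Efhc2, -1.81 for Mcf2, -1.78 for Usp26, -1.58 for Rhox5, -1.49 for Wdr45, -1.22 for Mpp1, -1.03 for Pgrmc1 and -0.80 for Slc25a5. In each of the 11 the changes of the 3 female lines lay on 1 side of the changes of the 3 male lines. The same changes gave the calls, so this follows from the selection. The 3 female changes lay below the 3 male ones in 7.33% of all autosomal and 46.8% of all X-linked genes. They lay above in 8.97% and 0.589%.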

How the results depend on the processing

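The 1310 autosomal genes called in the female lines became 751 in a fit of the female libraries alone with the replicate block and 564 without a filter on low values, and 40 to 1809 when single lines were left out. The 220 X-linked calls ranged from 18 to 238 when single lines were left out. The male autosomal count of 2011 became 1218 without a filter and 65 to 2820 without single lines. For the female minus male difference, the 3 autosomal and 8 X-linked calls became 0 and 0 with no replicate block, and 0 and 0 without a filter (1789 genes at an unadjusted p under 0.05). Centring on the median autosomal gene gave 5 autosomal calls, a mean of at least 5 CPM gave 5 X-linked calls, and single lines left out gave 0 to 77 autosomal and 1 to 68 X-linked calls. The causes were not tested. With the paired fit dropped (no replicate block) the female autosomal count was 1084. The female autosomal calls were also counted without the genes of chromosome 8 (1233) and without the feeder and macrophage lists (1283). These choices were made after seeing the data. No new fit was made, so these counts only drop the listed genes. They cannot show how feeder cells, macrophages or the dose of chromosome 8 affected other genes. Of 96 results on named genes 8 kept their call in every alternative and 0 changed sign, and 325 of 1318 values lost their call. The difference of Usp26 ranged from -1.85 to -1.65 over its 13 alternatives, and it was not called with no replicate block or without a filter. With 3 lines a group, differences near the median standard error of 0.25 log2 could not be called at this size. The limit lay well above that value. Of the 11 genes called, Slc25a5 had the smallest difference (-0.80). Larger ones, such as those of Tbx3 and Aldoc, were not called with all lines.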
